A study of Homo sapiens with 10 samples.

Results

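The binding of wild-type ERG and of ERG P436A was compared in RWPE1, a line of normal prostate epithelial cells, using the 3 ERG peak lists of that line. All peaks of the 3 lists were taken: 1901 peaks of wild-type ERG replicate 1, 1953 of wild-type ERG replicate 2 and 1746 of ERG P436A. These 5600 peaks are part of 30301 in the 7 lists of the series. The series mapped ERG and EWS by ChIP-seq, in which DNA crosslinked to a protein is pulled down with an antibody and sequenced, in VCaP prostate cancer cells and in RWPE1. The RWPE1 cells of each group stably expressed either wild-type ERG or the point mutant, were kept under puromycin and hygromycin selection in keratinocyte serum-free medium with pituitary extract and epidermal growth factor, and were precipitated with the same ERG antibody, clone 9FY. The labels name no time point, no promoter for the transgene and no clone, and do not say whether the wild-type replicates came from separate cultures. RWPE1 cells without an ERG transgene, and input reads, were not analysed here.

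ERG belongs to the ETS family of transcription factors, whose winged-helix domain binds DNA with a GGAA core. It is little expressed in normal prostate epithelium, and in many prostate cancers a gene fusion places it under an androgen-driven promoter. EWS is an RNA-binding protein and co-activator. In P436A a proline of ERG is replaced by an alanine, a change the study used to weaken the contact of ERG with EWS. The comparison asks whether the mutant still occupied the sites of the wild-type protein. A site is called kept where a P436A peak overlapped a wild-type peak by at least 1 bp, lost where none did, and gained where a P436A peak overlapped no wild-type peak. Lost and gained mean absent from a deposited list, not absent binding, since read depth and peak height are unknown. With 2 wild-type lists and 1 mutant list no test of the conditions was possible, so the overlap of the wild-type replicates serves as the reference. Intervals are exact 95% binomial (Clopper-Pearson) intervals. They cover counting error only, and peaks are not replicates.

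The lists differed in peak width and in the peaks that stood first. Median peak width was 608 bp in replicate 1, 501 bp in replicate 2 and 491 bp in P436A, whose widest peak was 501 bp. In replicate 1, 71.3% of the peaks were wider than that, and in replicate 2 49.4%. Replicate 2 opened with 7 of its first 10 peaks inside chr22:29669209-29696296, a stretch where replicate 1 had 0 peaks and P436A 3. The EWS list of P436A cells had 4 peaks there, at its rows 2, 3, 4 and 6. Whether plasmid or transgene DNA gave rise to peaks of this stretch was not tested, as genes were not assigned. Without this stretch the P436A list overlapped 130 of 1946 replicate 2 peaks (6.68%), against 133 of 1953 with it, so 3 of the kept sites lie there. Replicate 1 opened differently. Of its first 10 peaks, 8 lay on chromosomes 2, 9, 16 and X, 8 overlapped an EWS peak of the wild-type cells, and those 8 were in neither of the other ERG lists.

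Most wild-type sites had no P436A peak, and most had no peak in the other wild-type replicate either. P436A kept 221 of the 1901 replicate 1 peaks (11.6%, 10.2% to 13.2%), and 1680 were lost. Replicate 2 held 115 of the same 1901 peaks (6.05%, 5.02% to 7.22%). The mutant list thus met replicate 1 at more sites than the second wild-type list did. The intervals do not overlap, but both shares are of the same 1901 peaks and the intervals treat peaks as independent. Their separation is therefore no test of the difference. For replicate 2 the order was the same, with overlapping intervals. P436A kept 133 of its 1953 peaks (6.81%, 5.73% to 8.02%) and lost 1820, while replicate 1 held 116 (5.94%, 4.93% to 7.08%). Without chromosomes 1, 5, 9 and 20 the order for replicate 2 turned, to 4.48% with P436A against 5.82% with replicate 1. Outside crowded megabases, those with at least 10 peaks of the 3 lists together, it turned as well, to 3.94% against 5.55%.

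Counted from the mutant, 221 of the 1746 P436A peaks (12.7%, 11.1% to 14.3%) overlapped a replicate 1 peak and 133 (7.62%, 6.42% to 8.96%) a replicate 2 peak. Both wild-type lists held 52 of them, replicate 1 alone 169 and replicate 2 alone 81. The remaining 1444 P436A peaks (82.7%, 80.8% to 84.4%) were gained. The same count was made for each wild-type list, with P436A as 1 of its 2 other lists, so it is not a reference from wild-type lists alone. In replicate 1, 1619 peaks (85.2%, 83.5% to 86.7%) were in neither of the other lists, and in replicate 2 1757 (90.0%, 88.5% to 91.3%). The share of peaks seen in 1 list only was thus lowest for the mutant. Its interval overlapped that of replicate 1 and not that of replicate 2. List against list, 87.3% of P436A peaks were missing from replicate 1 and 92.4% from replicate 2. Between the replicates, 94.0% of replicate 1 and 94.1% of replicate 2 peaks were not shared.

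**Figure D1:**
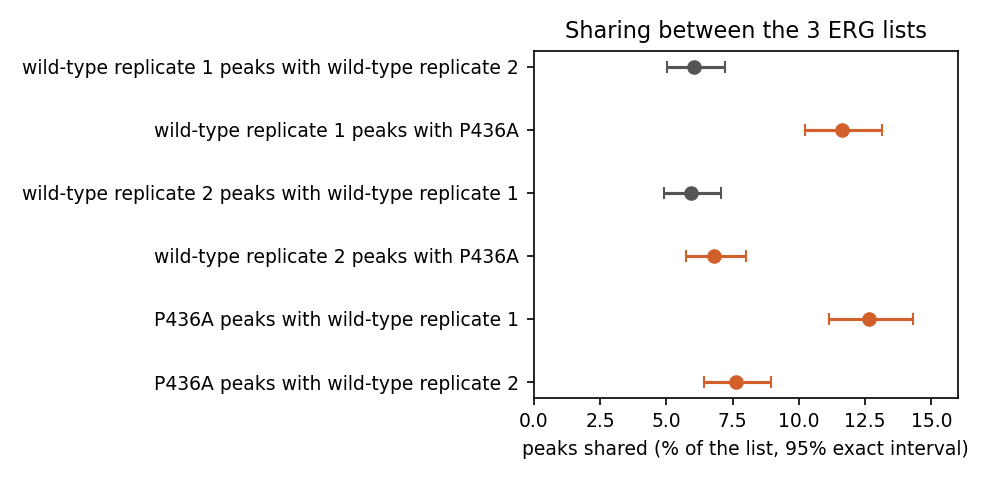
Share of each list's peaks (x axis, % with 95% exact interval) that overlapped a peak of a second list (y axis, 1 row per pair of lists). Grey points are the 2 wild-type replicates against each other, at 6.05% and 5.94%, and orange points involve P436A, from 6.81% to 12.7%.

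Joined across lists, the peaks formed 5182 regions, of which 3738 were in at least 1 wild-type list. P436A was found at 302 of those regions and not at 3436. The 302 kept regions were 55 in all 3 lists, 167 in replicate 1 and P436A, and 80 in replicate 2 and P436A. The regions that recurred between the wild-type replicates, 115 in all, were kept more often than the rest. P436A was found at 55 of them (47.8%, 38.4% to 57.3%) and not at 60. Taken per list, 54 of the 115 replicate 1 peaks with a replicate 2 partner had a P436A peak (47.0%, 37.6% to 56.5%), against 167 of 1786 without one (9.35%, 8.04% to 10.8%). In replicate 2 the counts were 53 of 116 (45.7%, 36.4% to 55.2%) and 80 of 1837 (4.35%, 3.47% to 5.39%). Recurrence in wild-type cells and presence with the mutant thus went together in both lists. This was not particular to recurrence between wild-type lists. Of the 221 P436A peaks with a replicate 1 peak, 52 also had a replicate 2 peak (23.5%, 18.1% to 29.7%). Of the 1525 without one, 81 did (5.31%, 4.24% to 6.56%).

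**Figure D2:**
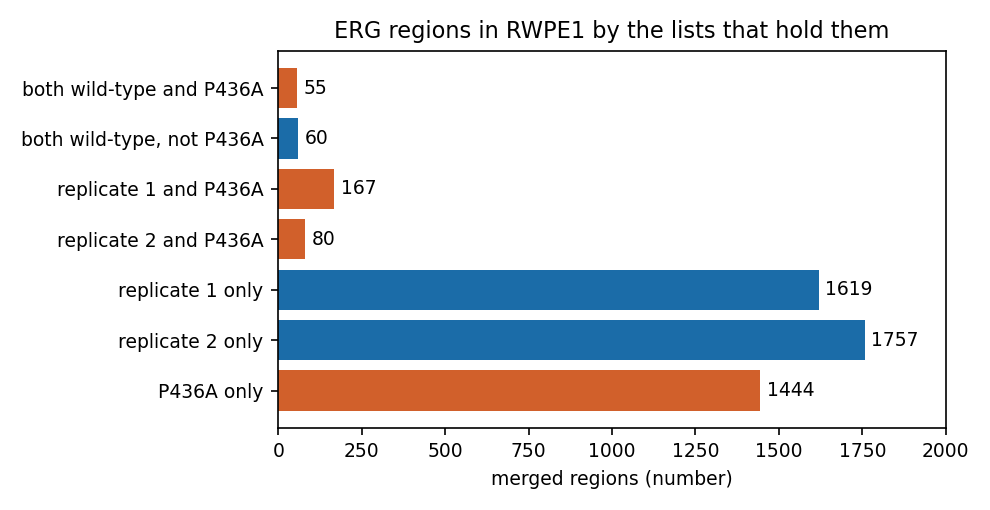
Number of merged ERG regions (x axis) in each combination of the 3 lists (y axis), with the number printed beside each bar. Regions with a P436A peak are orange. The 3 bars of regions in 1 list only, at 1619, 1757 and 1444, exceed the 55 regions in all 3 lists and the 60 in both wild-type lists without P436A.

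Regions in all 3 lists that stood first in their lists lay on chromosomes 1, 5, 9 and 20. At chr9:132095707-132097102 the replicate 1 peak was 1250 bp wide and stood in row 19, the replicate 2 peak was 1315 bp wide in row 33 and the P436A peak 493 bp in row 22. This region also had an ERG peak in VCaP. At chr1:199241361-199242652 the peaks were in rows 6, 84 and 4 of replicate 1, replicate 2 and P436A, with widths of 1292, 546 and 489 bp. At chr5:180650167-180651166 they were in rows 103, 27 and 8, and the 3 peak centres lay within 17.5 bp of each other, the closest of all 55 regions. VCaP had an ERG peak there too. Rows in the list are positions in the deposited order, which no source describes as a ranking.

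Further kept regions by the same order were chr1:40524739-40525737 (rows 66, 106 and 33) and chr1:16471460-16472593 (rows 52, 112 and 58). On chromosome 20 they were chr20:62504436-62505474, in rows 69, 28 and 186, and chr20:45945607-45946715, in rows 38, 64 and 327. The region chr9:110912911-110913626 was in rows 234, 128 and 40, and it and chr1:40524739-40525737 had a VCaP ERG peak. Of these 8 first listed kept regions, 4 had a VCaP ERG peak, 0 had an EWS peak of wild-type cells and 1, chr9:132095707-132097102, had an EWS peak of P436A cells. Over all 55 regions of this class the counts were 16 (29.1%), 6 (10.9%) and 2 (3.64%). The other regions with the closest centres were chr5:150080086-150080864 (within 20 bp), chr9:128411430-128412091 (20 bp), chr17:62702753-62703951 (23 bp) and chr2:113569247-113570157 (35.5 bp). Close centres were not limited to early rows, since the chromosome 9 region of this set stood in rows 1620, 1050 and 1550.

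Regions found with wild-type ERG in both replicates and absent from the P436A list also included early rows. The first was chr21:39755182-39756152, with an 829 bp peak in row 107 of replicate 1 and a 971 bp peak in row 13 of replicate 2, their centres 38 bp apart. Whether transgene DNA gave rise to this peak was likewise not tested, so its absence with P436A is a difference between lists only. Within chromosome 21 from 39.6 to 40.1 Mb, a window chosen after its values were seen, replicate 2 had a second peak at chr21:39817251-39817887. P436A had its only peak of that window at chr21:39696189-39696677, and VCaP ERG had 0. The second region, chr2:20431092-20431976, was in rows 108 and 21 with centres 10.5 bp apart. At chr2:235588339-235589088 the rows were 121 and 98, and at chr5:60457791-60458490 they were 223 and 20. The latter was the 1 region of these 8 with a VCaP ERG peak. Over all 60 regions of this class 5 had one (8.33%).

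The other lost regions of this order were chr7:116412452-116413256, chr11:118792380-118793317, chr3:45208653-45209147 and chr20:46912423-46913878. At the chromosome 3 region the replicate peaks were 493 and 495 bp wide and their centres lay 1 bp apart. The chromosome 20 region rests on an overlap of 33 bp, the smallest between the replicates, with centres 711.5 bp apart. The chromosome 11 region was the 1 of the 8 with an EWS peak of wild-type cells. Over all 60 regions of this class 8 had one (13.3%).

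The first gained regions were chr9:32947257-32947744, chr1:32052665-32053135 and chr5:31538370-31538857, which are rows 1, 2 and 3 of the P436A list. They were followed by chr9:135770284-135770784 (row 5), chr19:49950706-49951202 (row 6), chr15:34781151-34781591 (row 15), chr22:50659534-50660013 (row 18) and chr2:220115300-220115792 (row 19). None of these 8 had a VCaP ERG peak or an EWS peak of either RWPE1 list. Over all 1444 gained regions a VCaP ERG peak lay at 5.12%, an EWS peak of wild-type cells at 4.16% and one of P436A cells at 1.66%. In regions of replicate 1 only these shares were 7.54%, 9.08% and 0.988%. In regions of replicate 2 only they were 3.47%, 2.39% and 1.54%. Low shares were thus not particular to gained regions. Early rows of the mutant list were thus a mixture. Of its first 20 peaks, 11 were in replicate 1 and 3 in replicate 2, and of its first 100, 32 and 15.

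Kept sites were concentrated at the head of the replicate 1 list. In the first 10% of that list P436A kept 70 of 191 peaks (36.6%, 29.8% to 43.9%), in the next 10% 30 of 190 (15.8%) and in the last 10% 12 of 190 (6.32%). These 70 made up 31.7% of all replicate 1 peaks kept. Replicate 2 held 34 of the first 191 (17.8%, 12.7% to 24.0%) and 11 of the last 190 (5.79%), so both partners were met more often early, and P436A more often than replicate 2 in the first 10%. With a reciprocal overlap of 0.5 that order turned, to 24 of 191 (12.6%) with P436A against 26 of 191 (13.6%) with replicate 2. This rule is not alike for the 2 partners. P436A peaks are at most 501 bp wide, so a peak over 1002 bp cannot meet it with them, and the median of these 191 was 988 bp. Replicate 2 peaks are up to 5985 bp wide. In the replicate 2 list the first 10% was kept at 25 of 196 (12.8%, 8.43% to 18.3%) and the last at 12 of 195 (6.15%). Replicate 1 held 23 of those first 196 (11.7%). Along the P436A list, the share with a replicate 1 peak fell from 48 of 175 (27.4%, 20.97% to 34.7%) in the first 10% to 6 of 174 (3.45%, 1.28% to 7.35%) in the last. With replicate 2 the shares at both ends were 21 of 175 (12.0%) and 17 of 174 (9.77%), with overlapping intervals.

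**Figure D3:**
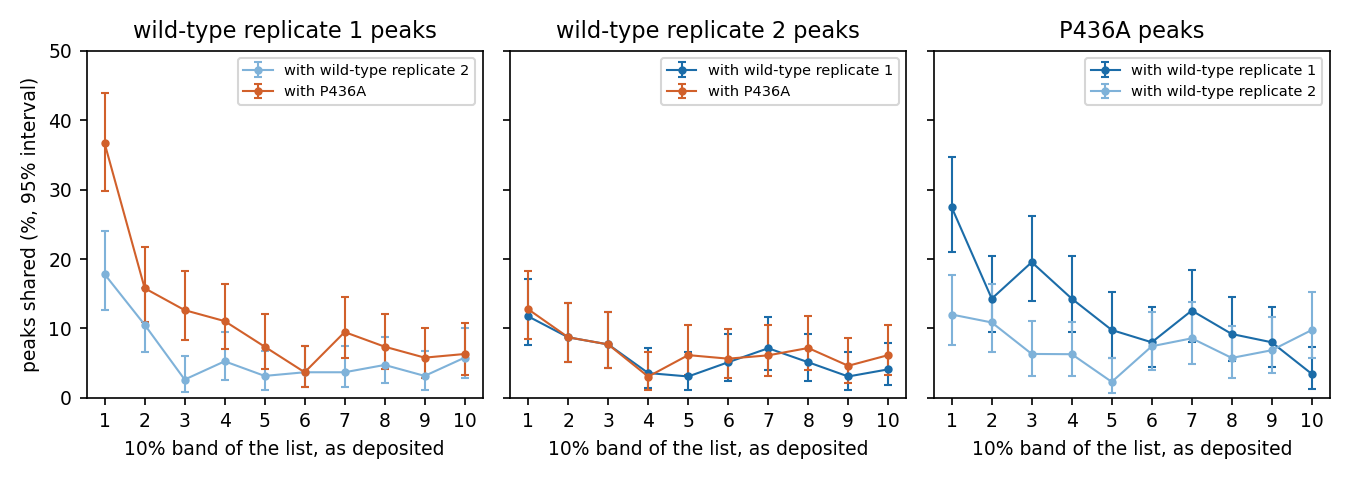
Share of peaks that overlapped a second list (y axis, % with 95% exact interval) in successive bands of 10% of a list in deposited order (x axis), for replicate 1, replicate 2 and P436A from left to right. Line colour gives the second list. The first band of replicate 1 stands at 36.6% with P436A and 17.8% with replicate 2, and the last at 6.32% and 5.79%.

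List order in replicate 1 went with peak width, the median being 988 bp in its first 10% and 498 bp in its last. Kept replicate 1 peaks had a median width of 837 bp (quartiles 639 and 988 bp), lost ones 585 bp (499 and 753 bp). In replicate 2 the medians were 582 bp for kept and 501 bp for lost peaks. By width, P436A kept 19 of 509 replicate 1 peaks of up to 500 bp (3.73%, 2.26% to 5.77%) and 52 of 145 over 1000 bp (35.9%, 28.1% to 44.2%). Replicate 2 held 16 (3.14%) and 24 (16.6%, 10.9% to 23.6%) of the same peaks. For replicate 2 peaks P436A kept 33 of 916 of up to 500 bp (3.60%) and 13 of 45 over 1000 bp (28.9%, 16.4% to 44.3%). With every peak set to 500 bp around its centre, P436A still kept 220 replicate 1 peaks (11.6%) and 134 of replicate 2 (6.86%), and 36.6% of the first 10% of replicate 1.

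P436A peaks themselves varied little in width. The median was 494 bp for those in replicate 1 and 491 bp for those not in it, and 490 bp for the 1444 gained peaks. Where a mutant peak met a replicate 1 peak, it lay wholly inside it in 147 of 221 pairs (66.5%), and the centres were a median of 107.5 bp apart (quartiles 43.5 and 175.5 bp). With replicate 2 the mutant peak lay wholly inside in 48 of 133 pairs (36.1%), with a median offset of 101 bp. The wild-type replicates were a median of 86.8 bp apart in their 116 overlapping pairs. Offsets of up to 100 bp made up 47.1%, 49.6% and 53.4% of these 3 sets of pairs. Median offsets of the 3 sets thus lay between 86.8 and 107.5 bp.

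Few sites lay near the limit of 1 bp. The smallest overlaps between replicate 1 and P436A were 60 bp at chr1:198724351-198724845 and 83 bp at chr1:91852643-91853250, and 2 of the 221 pairs overlapped by less than 100 bp. Between replicate 2 and P436A the smallest was 108 bp, at chr20:34639147-34639625. Just outside were the replicate 1 peaks chr1:199455574-199456138, with a gap of 64 bp, and chr18:3350551-3351041, with a gap of 70 bp, and the replicate 2 peaks chr14:103595292-103595773 (7 bp) and chr20:32255868-32256365 (20 bp). Among the 1680 lost replicate 1 peaks, 26 had a P436A peak within 1 kb (1.55%) and 120 within 10 kb (7.14%). The median gap was 299 kb. For the 1820 lost replicate 2 peaks these numbers were 24 (1.32%), 160 (8.79%) and 219 kb. Replicate 1 peaks without a replicate 2 partner had one within 10 kb in 5.82% of cases and a median gap of 400 kb. P436A peaks missing from replicate 1 had a median gap of 216 kb to its nearest peak, and those missing from replicate 2 one of 185 kb.

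All 3 lists were uneven across chromosomes. Chromosomes 1, 5, 9 and 20 held 47.7% of replicate 1, 54.3% of replicate 2 and 56.9% of P436A peaks. Replicate 1 had 406 peaks on chromosome 1, replicate 2 132 and P436A 266. On chromosome 9 the order was reversed, with 119, 378 and 209 peaks. On chromosome 20 replicate 1 had 160 peaks, replicate 2 300 and P436A 284. On chromosome 5 the counts were 221, 250 and 235. In number of peaks, not corrected for list length, the mutant thus lay between the wild-type replicates on each of these 4 chromosomes. As a share of the list, P436A stood highest on chromosomes 5 and 20 and between the replicates on chromosomes 1 and 9. The 4 together were highest in P436A, at 56.9%.

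**Figure D4:**
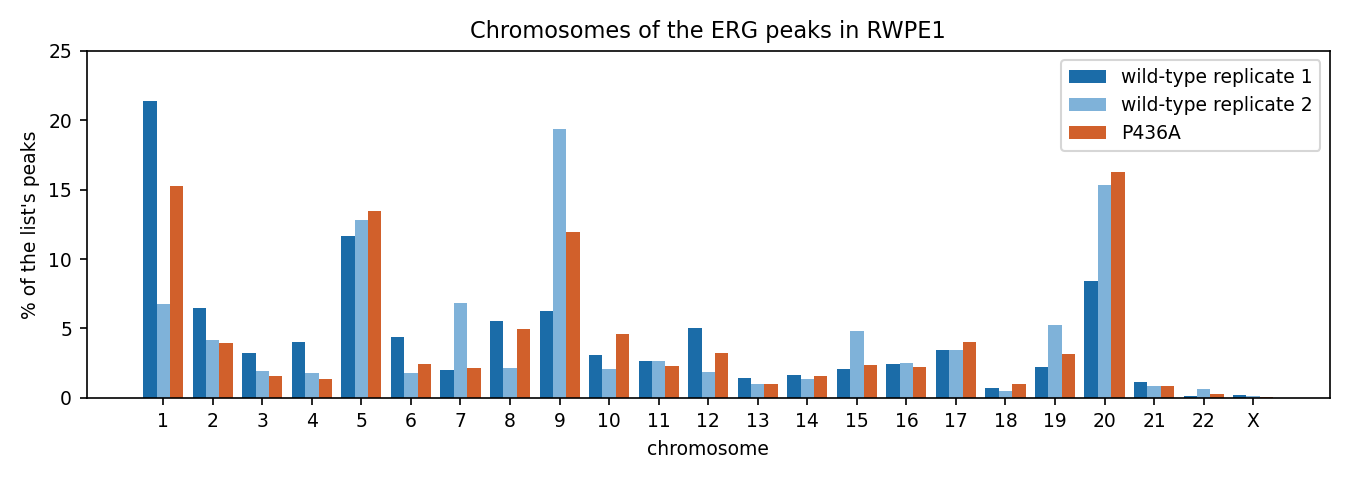
Share of each list's peaks (y axis, %) on chromosomes 1 to 22 and X (x axis), with dark blue bars for wild-type replicate 1, light blue for replicate 2 and orange for P436A. On chromosomes 1 and 9 the orange bar stands between unequal blue bars, which stand for 406 and 132 peaks on chromosome 1 and for 119 and 378 on chromosome 9.

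The share of replicate 1 peaks kept by the mutant was 41 of 160 on chromosome 20 (25.6%), 13 of 66 on chromosome 17 (19.7%), 8 of 42 on chromosome 19 (19.05%), 4 of 21 on chromosome 21 (19.05%), 19 of 105 on chromosome 8 (18.1%) and 20 of 119 on chromosome 9 (16.8%). It was 35 of 406 on chromosome 1 (8.62%), 4 of 83 on chromosome 6 (4.82%) and 0 of 40 on chromosome 15. Replicate 2 held 24 of the 160 chromosome 20 peaks (15.0%), 13 of the 119 on chromosome 9 (10.9%), 7 of the 66 on chromosome 17 (10.6%), 2 of the 21 on chromosome 21 (9.52%) and 12 of the 406 on chromosome 1 (2.96%). On chromosomes 19 and 8 it held fewer, at 2 of 42 (4.76%) and 6 of 105 (5.71%). Of the chromosomes whose shares are given above, 20, 17, 9 and 21 stood above the share of the whole list against both partners. Chromosomes 19 and 8 did so against the mutant only. Chromosome 15, where replicate 2 held 3 of the 40 peaks (7.5%), stood above it against replicate 2 only. These are counts of few peaks and their differences were not tested. Chromosome 20 held 15 of the 55 regions in all 3 lists, 9 of the 60 in both wild-type lists only and 223 of the 1444 gained. Chromosome 11 held 4 of the 60 lost and 0 of the 55 kept regions. Of its 50 replicate 1 peaks, P436A kept 5 (10%) and replicate 2 held 4 (8%).

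Some megabases separated the lists. From 195 to 202 Mb of chromosome 1, replicate 1 had 162 peaks, replicate 2 19 and P436A 68. The mutant kept 11 of the 162, against 221 of 1901 (11.6%) over the whole list. In the same block the EWS list of wild-type cells had 480 peaks and that of P436A cells 75. From 13 to 14 Mb of chromosome 19, replicate 2 had 59 peaks, replicate 1 0 and P436A 1, none of them kept. On chromosome 9, 139 to 140 Mb held 21 replicate 2 peaks, 16 of P436A and 0 of replicate 1, with 6 regions in common. On chromosome 20, 62 to 63 Mb held 7, 20 and 19 peaks of replicate 1, replicate 2 and P436A, and 4 regions in all 3 lists. Across the 1572 megabases with a peak of any list, peak numbers correlated between P436A and replicate 1 with Pearson's r = 0.476 and between P436A and replicate 2 with r = 0.501, against 0.145 between the replicates. Spearman's rho was 0.162, 0.240 and -0.0139. These are descriptions over megabases that share list length and crowding, and megabases empty in all lists were left out.

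Sites were kept more often where peaks were dense. In the 100 crowded megabases, P436A kept 102 of 568 replicate 1 peaks (18.0%, 14.9% to 21.4%), and elsewhere 119 of 1333 (8.93%, 7.45% to 10.6%). For replicate 2 the counts were 84 of 710 (11.8%, 9.55% to 14.4%) and 49 of 1243 (3.94%, 2.93% to 5.18%). Between the wild-type replicates the shares of replicate 1 were 8.10% (5.99% to 10.7%) and 5.18% (4.05% to 6.51%), with overlapping intervals. The mutant's own peaks count toward this density, so it is not independent of being kept. Of regions in both wild-type lists, P436A was found at 23 of 69 (33.3%, 22.4% to 45.7%) outside crowded megabases.

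Peaks of other lists at these regions were not used to choose them. A VCaP ERG peak lay at 16 of the 55 regions in all 3 lists (29.1%, 17.6% to 42.9%) and at 5 of the 60 in both wild-type lists without P436A (8.33%, 2.76% to 18.4%). These intervals overlap slightly. Over the other settings tried the first share ran from 20% to 39.1% and the second from 6.25% to 8.93%. VCaP ERG peaks lay at 20 of the 167 regions of replicate 1 and P436A (12.0%, 7.47% to 17.9%), 7 of the 80 of replicate 2 and P436A (8.75%) and 74 of the 1444 gained (5.12%, 4.05% to 6.39%). They lay at 122 of the 1619 regions of replicate 1 only (7.54%, 6.30% to 8.93%) and 61 of the 1757 of replicate 2 only (3.47%, 2.67% to 4.44%). Within each list, kept peaks had a VCaP ERG peak more often than lost ones. This was 35 of 221 (15.8%, 11.3% to 21.3%) against 128 of 1680 (7.62%, 6.40% to 8.99%) in replicate 1, and 21 of 133 (15.8%, 10.0% to 23.1%) against 68 of 1820 (3.74%, 2.91% to 4.71%) in replicate 2. Replicate 1 peaks shared with replicate 2 also had one more often, in 18.3% of cases (11.7% to 26.5%) against 7.95% of the others (6.74% to 9.30%). The regions in all 3 lists were also wider, with a median of 1009 bp against 802.5 bp without P436A. With every peak set to 500 bp the VCaP shares were 26.4% and 7.27%.

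**Figure D5:**
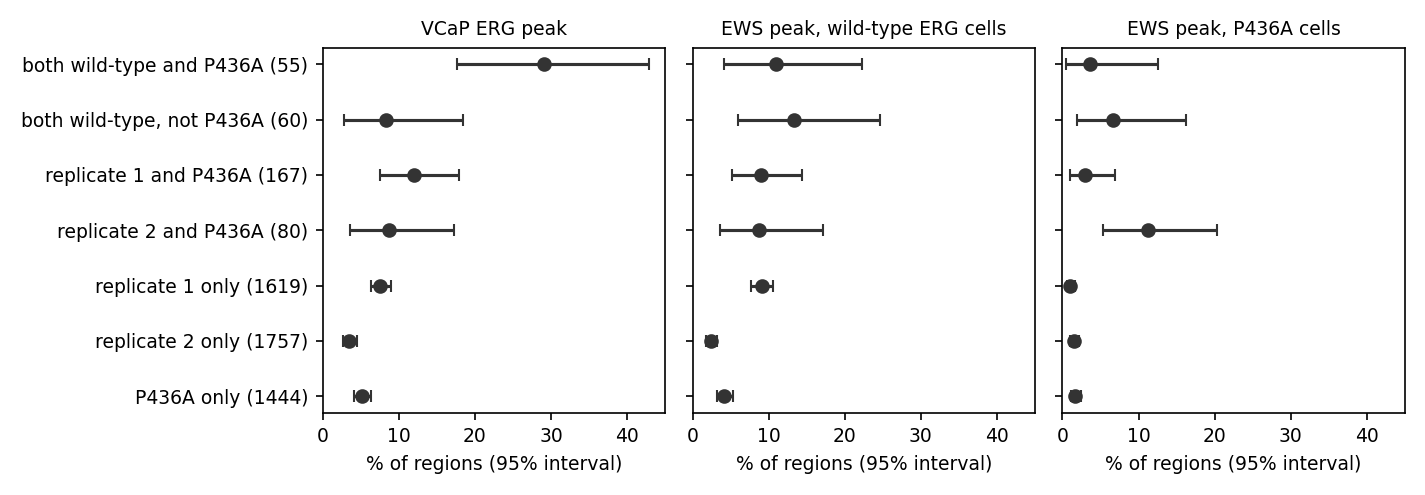
Share of merged regions (x axis, % with 95% exact interval) that had a VCaP ERG peak, an EWS peak found in RWPE1 with wild-type ERG, or one of RWPE1 cells with P436A (panels from left to right), by the ERG lists that hold the region (y axis, number of regions in brackets). The VCaP ERG share is 29.1% for regions in all 3 lists and 8.33% for those in both wild-type lists without P436A.

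In replicate 1, EWS peaks were found at kept and lost sites in shares whose intervals overlapped. An EWS peak of wild-type cells lay at 20 of the 221 kept replicate 1 peaks (9.05%, 5.62% to 13.6%) and at 156 of the 1680 lost (9.29%, 7.94% to 10.8%). In replicate 2 it lay at 13 of 133 kept (9.77%, 5.31% to 16.1%) and 50 of 1820 lost (2.75%, 2.05% to 3.61%). Among regions in both wild-type lists, 6 of the 55 kept (10.9%, 4.11% to 22.2%) and 8 of the 60 lost (13.3%, 5.94% to 24.6%) had one, with wide overlapping intervals. At the 1444 gained regions, 60 had an EWS peak of wild-type cells (4.16%, 3.19% to 5.32%) and 24 one of P436A cells (1.66%, 1.07% to 2.46%). Shares of the 2 EWS lists were not set against each other, since each depends on the length of its list. An EWS peak of P436A cells lay at 2 of the 55 kept (3.64%, 0.443% to 12.5%) and 4 of the 60 lost regions (6.67%, 1.85% to 16.2%). Per list, it lay at 6 of the 221 kept replicate 1 peaks (2.71%, 1.00% to 5.82%) and 21 of the 1680 lost (1.25%, 0.775% to 1.90%). For replicate 2 the counts were 11 of 133 kept (8.27%, 4.20% to 14.3%) and 31 of 1820 lost (1.70%, 1.16% to 2.41%), with separate intervals. By region, it lay at 9 of the 80 of replicate 2 and P436A (11.3%, 5.28% to 20.3%). The count was 27 of the 1757 of replicate 2 only (1.54%, 1.02% to 2.23%). Of the 80 regions, 3 lie in the stretch of chromosome 22 described above, all with such an EWS peak, and without them the count was 6 of 77 (7.79%, 2.91% to 16.2%). The replicate 2 peaks of these 3 regions are among the 11 kept peaks with an EWS peak of P436A cells. Regions of replicate 1 only had an EWS peak of wild-type cells in 147 of 1619 cases (9.08%, 7.72% to 10.6%), and regions of replicate 2 only in 42 of 1757 (2.39%, 1.73% to 3.22%). From 195 to 202 Mb of chromosome 1, where that EWS list had 480 peaks, replicate 1 had 162 peaks and replicate 2 19. The part of this block in the difference was not tested.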

How the data were processed

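Each deposited peak list has 3 columns, chromosome, start and end, without header, height, score or p-value. The deposited values are thus positions in base pairs. Per the submitters' processing notes, the authors aligned reads to hg19 with Bowtie2, stated as version 0.12.8. How peaks were detected, at which threshold and against which control, is not given in the sources used here. Starts were read as 0-based and are printed 1-based. Groups came from the sample titles. Peaks of different lists were shared at 1 bp or more, and overlapping peaks were joined into regions. The overlap counting was tested on simulated data with planted shared sites. Megabases with at least 10 peaks of the 3 lists were called crowded. The regions described are the first 8 of 3 classes by mean relative row and the 5 with the closest centres, chromosome M left out. Members, classes and alternatives were chosen with earlier results of these data known. The annotation at hand is of a later assembly, GRCh38, so genes, sequences and motifs were not assigned and the gene list was not used here. The VCaP EWS list was not used. Python 3.11.15, NumPy 2.4.6, SciPy 1.17.1 and matplotlib 3.10.9 were used.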

Additional observations from a re-analysis of the deposited data

How the results depend on the processing

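The 6 shares between lists were recomputed under 8 alternatives, and under a ninth added after the data were seen that left out the stretch of chromosome 22 at the head of replicate 2. With both single-replicate references for the gained share this gave 56 values, 43 of them within the 95% interval of the reported one. With a reciprocal overlap of 0.5 every overlap of 2 lists fell. This rule is stricter than 1 bp, so these overlaps could only fall and the gained share only rise. Replicate 1 shared 4.79% with replicate 2 and 7.73% with P436A, replicate 2 shared 4.66% with replicate 1 and 5.07% with P436A, and 87.1% of P436A peaks were gained. P436A peaks are at most 501 bp wide, so a wild-type peak over 1002 bp cannot meet this rule. Under it the first 10% of replicate 1 stood at 12.6% with P436A and 13.6% with replicate 2, the opposite order to the reported one. Without chromosomes 1, 5, 9 and 20, P436A kept 10.2% of replicate 1 and 4.48% of replicate 2, and 28.0% of the first 10% of replicate 1. Outside crowded megabases it kept 8.93% and 3.94%, 29.1% of that first 10% and 33.3% of the regions in both wild-type lists, and 86.0% of its peaks were gained. Against a single wild-type list the gained share was 87.3% (replicate 1 alone) to 92.4% (replicate 2 alone), and leaving out a list can only raise it. The share of replicate 1 with P436A exceeded that with replicate 2 in the reported setting and all 8 alternatives, whereas for replicate 2 the order held in 7 of these 9. Apart from the directions fixed by the rule, the cause of these shifts was not tested. The alternatives of centres within 500 bp and peaks set to 500 bp gave the same counts, since both compare centres at that distance. No paired analysis was possible because the P436A list carries no replicate number. Read depth is unknown, so a site missing from a list may lie below its threshold.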
